A study of Homo sapiens with 12 samples.

Results

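The data describe the long intergenic non-coding RNA genes that K562 cells transcribe and how their RNA levels differed after inhibition of the deubiquitinase USP7. The genes were taken by their annotation in GENCODE release 44 as long non-coding RNA (lncRNA) genes with a symbol made of LINC and a number, and by a sum of at least 60 counts over 6 RNA-seq libraries. Of 2241 such genes among the 60609 that the count tables list, 141 (6.29%) met this minimum, 615 had between 1 and 59 counts and 1485 had none. They were thus chosen by their summed counts over both groups, not by the difference between them. LncRNAs with names of another form, such as LINC-PINT, are outside the rule.

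K562 is an established human line of leukemic cells with erythroid features, first grown from chronic myeloid leukemia. FT671 is a small molecule that inhibits USP7, and the study examined USP7 as a partner of PRC1.1, a variant Polycomb repressive complex. In the RNA-seq experiment 3 libraries came from cells given the solvent DMSO and 3 from cells given 10 μM FT671 for 48 h, all from the same cell line with no other modification named in the labels. The study describes the 3 libraries of a group as independent experiments, and p-values measure the spread between them. Of the experiment's ChIP-seq samples no values were analysed here.

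LncRNAs are mostly made by RNA polymerase II, and many are capped, spliced and polyadenylated like mRNAs, but they hold no long conserved reading frame. The LINC symbols with a number are given to those lying between protein-coding genes, usually before a function is known. Such RNAs are often scarce and restricted to few cell types, and some start beside the promoter of a protein-coding gene and are transcribed away from it.

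The libraries held between 4555220 and 14250500 counts, and DMSO provided 58.6% of the counts of all 6. A count of 3, taken as the smallest detectable signal in a library, corresponded to between 0.208 and 0.666 CPM (counts scaled by library size, with TMM factors), and this floor covers counting error only. Erythroid and K562 genes were present throughout, with the transcription factor GATA1 between 230 and 324 CPM and the transferrin receptor TFRC between 416 and 654 CPM. Among genes listed as markers of other lineages, MS4A1 had no count, CD3E, CD14 and ALB did not exceed 0.541 CPM and COL1A1 did not exceed 2.35 CPM. LYZ and EPCAM, also on that list, were at 50.8 to 75.6 and 58.6 to 86.6 CPM in both groups together. How far these markers bear on the LINC genes was not tested. The strand setting of the counting is not given in the sources used here, so reads of overlapping genes cannot be told apart.

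Below are the 300 bases around the RefSeq start (250 before it and 50 after it) of some LINC genes. These genes are 4 of the 10 largest falls and 3 of the 10 largest rises after FT671. Neither the largest fall nor the largest rise is among them. Each CG is in capitals, because the CxxC domain of the PRC1.1 subunit KDM2B binds unmethylated CG-rich DNA. The sequences are written 5′ to 3′ on the gene's own strand. They come from the RefSeq promoter table for GRCh38.p14, which held a promoter for 81 of the 141 genes. The window of LINC00205, chr21:45287802-45288101 on the plus strand, holds 34 CG and also contains, at its position 97, the start of the protein-coding gene POFUT2 on the other strand. That of LINC00334, chr21:45234090-45234389 on the plus strand, holds 22. That of LINC00938, chr12:45727872-45728171 on the minus strand, holds 9. That of LINC00294, chr11:33075900-33076199 on the plus strand, holds 1 and lies wholly inside PIGCP1, a processed pseudogene.
LINC00205: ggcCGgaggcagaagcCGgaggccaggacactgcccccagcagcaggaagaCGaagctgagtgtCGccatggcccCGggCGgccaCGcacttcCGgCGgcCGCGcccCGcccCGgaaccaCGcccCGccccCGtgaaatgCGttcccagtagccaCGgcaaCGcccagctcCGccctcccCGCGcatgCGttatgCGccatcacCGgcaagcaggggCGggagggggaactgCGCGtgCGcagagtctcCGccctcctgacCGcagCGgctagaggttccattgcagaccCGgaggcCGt
LINC00334: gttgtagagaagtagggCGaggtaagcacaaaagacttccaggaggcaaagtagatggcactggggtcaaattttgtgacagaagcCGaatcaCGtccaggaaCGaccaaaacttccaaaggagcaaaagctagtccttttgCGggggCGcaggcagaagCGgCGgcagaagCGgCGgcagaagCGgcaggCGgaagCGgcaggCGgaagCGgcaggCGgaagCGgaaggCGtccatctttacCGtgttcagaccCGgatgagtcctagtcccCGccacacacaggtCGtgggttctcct
LINC00938: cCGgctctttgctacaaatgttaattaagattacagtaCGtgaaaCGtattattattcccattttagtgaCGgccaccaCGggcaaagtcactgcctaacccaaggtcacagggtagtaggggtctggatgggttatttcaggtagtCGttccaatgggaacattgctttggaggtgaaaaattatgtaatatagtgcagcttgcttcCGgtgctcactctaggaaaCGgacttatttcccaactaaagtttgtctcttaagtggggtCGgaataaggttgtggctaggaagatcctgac
LINC00294: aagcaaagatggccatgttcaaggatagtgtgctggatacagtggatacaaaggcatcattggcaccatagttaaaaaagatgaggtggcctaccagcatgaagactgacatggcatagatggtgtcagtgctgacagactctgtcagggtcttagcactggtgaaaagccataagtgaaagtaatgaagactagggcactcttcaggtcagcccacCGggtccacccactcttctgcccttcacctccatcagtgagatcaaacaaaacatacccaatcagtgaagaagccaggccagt

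The CG counts of the 3 windows of genes that were higher after FT671 lay within the range of those 4. The window of LINC00839, chr10:42475241-42475540 on the plus strand, holds 9 CG. The window of LINC00659, chr20:62776807-62777106 on the minus strand, holds 6. The window of LINC00960, chr3:75672031-75672330 on the plus strand, holds 15. The RefSeq start of LINC01002, which was also higher, lies 44335 bases from the GENCODE start, and its window is not shown for that reason.
LINC00839: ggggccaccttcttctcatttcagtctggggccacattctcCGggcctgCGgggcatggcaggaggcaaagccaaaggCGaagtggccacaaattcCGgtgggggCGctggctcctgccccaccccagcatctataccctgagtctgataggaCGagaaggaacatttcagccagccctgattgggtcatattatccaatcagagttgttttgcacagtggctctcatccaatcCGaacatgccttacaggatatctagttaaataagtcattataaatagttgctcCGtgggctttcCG
LINC00659: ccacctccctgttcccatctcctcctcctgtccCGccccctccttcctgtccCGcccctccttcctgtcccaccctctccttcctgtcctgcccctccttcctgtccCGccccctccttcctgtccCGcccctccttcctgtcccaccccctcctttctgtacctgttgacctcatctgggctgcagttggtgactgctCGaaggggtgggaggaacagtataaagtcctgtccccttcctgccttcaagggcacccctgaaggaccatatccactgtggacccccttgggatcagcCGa
LINC00960: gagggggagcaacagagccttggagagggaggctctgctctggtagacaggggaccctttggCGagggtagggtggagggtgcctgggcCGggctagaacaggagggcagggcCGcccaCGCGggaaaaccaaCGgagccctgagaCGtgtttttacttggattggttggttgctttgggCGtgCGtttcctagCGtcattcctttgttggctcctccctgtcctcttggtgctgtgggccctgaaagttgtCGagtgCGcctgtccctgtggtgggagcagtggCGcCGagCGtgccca

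Over the 81 LINC promoters the median was 10 CG in 300 bases, with a range of 0 to 43, against a median of 14 over all 35116 promoters of the table. The 12 promoters of genes that were higher after FT671 had a median of 8, the 7 of genes that were lower a median of 9 and the 62 of the remaining genes a median of 12. A GATA motif, searched as AGATAA or TGATAA on both strands, was present in 17 LINC promoters (21.0%) and in 16.3% of all promoters. It was present in 4 of the 12 promoters of higher genes and in 0 of the 7 of lower genes, and in none of the 7 sequences shown. These counts describe letters in a window, and binding was not measured here. In some of the windows counted, the RefSeq start lies far from the GENCODE start. Among higher genes these were LINC01002 (44335 bases) and LINC01524 (428679 bases), the latter with a GATA motif. Among lower genes they were LINC00963 (11714 bases, 43 CG), LINC01088 (32263 bases) and LINC02840 (44710 bases). Some of the remaining genes also had such windows.

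FT671 and DMSO were first compared over all LINC genes to ask how many differed. At an adjusted p of 0.05 in edgeR's quasi-likelihood test, 21 LINC genes rose, 16 fell and 103 did not pass, out of 140 tested. In bulk RNA fewer cells that express a gene and less of its RNA per cell cannot be told apart. The rises were 15% of the LINC genes tested, beside 23.6% of all 13895 genes tested, and the falls were 11.4%, beside 26.5%. The median log2 fold change was 0.70 among the rises and -0.92 among the falls. In each direction 5 of these genes changed by more than 1 on the log2 scale. Whether called or not, 7.14% of the LINC genes and 10.6% of all genes tested had a log2 fold change beyond 1 in either direction. LINC00858 did not pass edgeR's filter on low counts, with 26, 20 and 2 counts in the DMSO libraries and 4, 2 and 8 in the FT671 libraries.

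The number of rises depended on the libraries and the method. It was 11 without FT671 replicate 3 and 13 without DMSO replicate 2, and DESeq2's Wald test at the same threshold gave 9 rises and 12 falls. The number also differed with overlap, meaning sequence shared with another annotated gene (the span on the same strand or an exon on the other). Of the 89 LINC genes with such an overlap 17 rose (19.1%) and 7 fell (7.87%). Of the 51 without one 4 rose (7.84%) and 9 fell (17.6%). Over all genes tested these shares were 23.6% and 26.5%. Median counts were 217 with overlap and 143 without, and median standard errors of the log2 fold change were 0.22 and 0.29. Where only overlapping genes with 60 or more counts of their own were considered, a choice made after the data were seen, 10 of 47 LINC genes with such an overlap rose and 3 fell, and 11 of 93 without one rose and 13 fell. The part of overlapping transcription in these counts was not tested.

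The median log2 fold change of all 140 LINC genes was 0.09, with quartiles at -0.23 and 0.37. The median was -0.01 for all genes tested, -0.02 for protein-coding genes and -0.02 for the other lncRNA genes. Values above 0 were found for 82 of the 140 LINC genes and for 6857 of all 13895 genes. Every FT671 library lay above every DMSO library in 28 LINC genes and below every DMSO library in 28. Among all genes tested these shares were 26.8% and 30.3%. All 16 genes that fell, and 20 of the 21 that rose, had groups that did not overlap, the exception being LINC01029.

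**Figure D1:**
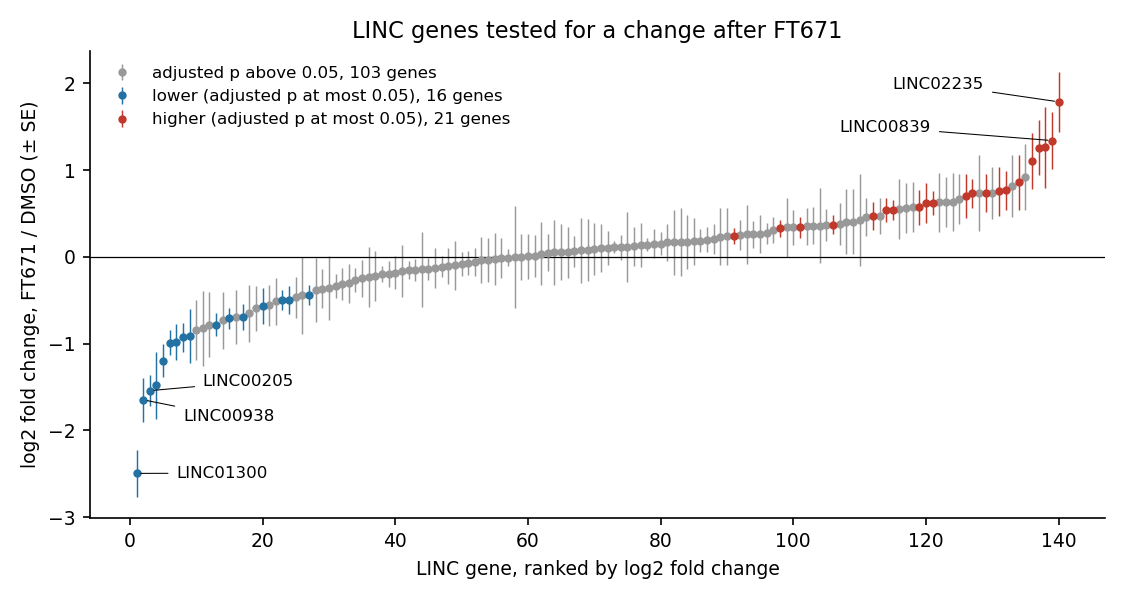
Log2 fold change of FT671 over DMSO for the 140 LINC genes tested, ranked from the lowest to the highest, with bars of 1 standard error on each side. Points show 21 genes that rose (red), 16 that fell (blue) and 103 that did not pass an adjusted p of 0.05 (grey), from LINC01300 at -2.50 to LINC02235 at 1.79.

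At the stricter threshold of 1e-05, which the study's methods use, LINC01300 fell, and no LINC gene rose. In edgeR 1.79% of all genes tested rose and 4.13% fell at that threshold, and DESeq2's Wald test also gave 0 rises among the LINC genes. At an unadjusted p under 0.05, 51 of 140 LINC genes and 7799 of all 13895 genes differed in either direction by edgeR's test. At 1e-05, 0 fell without DMSO replicate 2 or without any one of the FT671 libraries, and 4 fell and 2 rose without DMSO replicate 3. With no filter on low counts 9 fell, and with a correction for GC content 5 fell.

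The share of genes called increased with their counts, so LINC genes were set beside other genes in the same ranges of counts. In the range of 60 to 199 counts over the 6 libraries, 12 of 68 LINC genes (17.6%) passed the 0.05 threshold, against 28.1% of all genes, and 10 of these rose and 2 fell. From 200 to 599 counts it was 12 of 40 against 40.4%, with 4 rises and 8 falls. At 600 counts or more it was 13 of 32 (40.6%) against 58.9%, with 7 rises and 6 falls. This last range has no upper end and is not matched in depth. Its median counts were 1330 for LINC genes, 1340 for the other lncRNA genes and 2660 for protein-coding genes. The other lncRNA genes had shares of 22.3%, 39.2% and 55.2% in the same ranges. The median standard error of the log2 fold change was 0.24 for LINC genes and 0.13 for all genes.

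**Figure D2:**
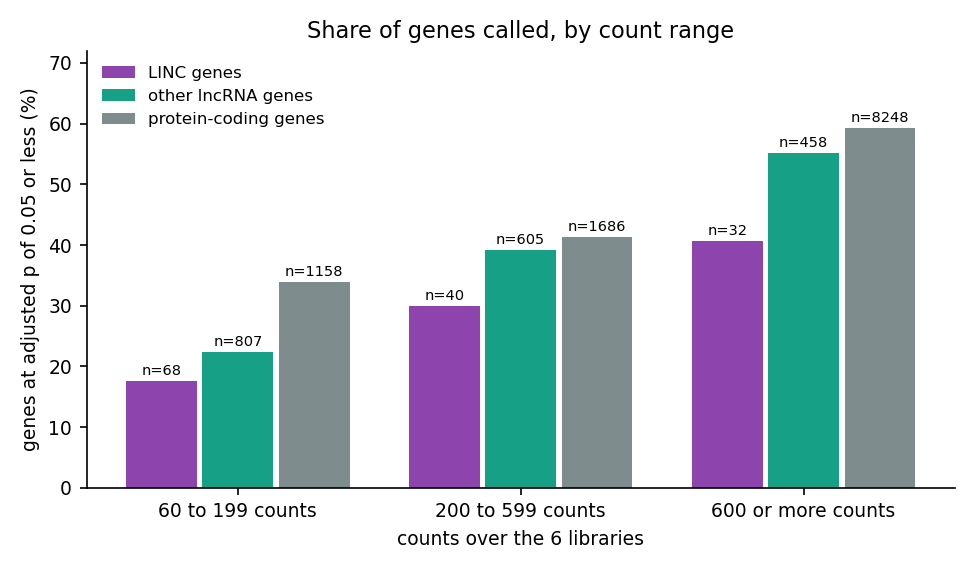
Share of genes (percent) at an adjusted p of 0.05 or less in either direction, for LINC genes, other lncRNA genes and protein-coding genes in 3 ranges of counts over the 6 libraries; n is the number tested. LINC genes had the lowest share in each range, with 12 of 68, 12 of 40 and 13 of 32 genes called.

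For the 103 genes that did not pass, the 95% interval of the log2 fold change lay within 1 of 0 for 72 genes, and within 0.5 for 17 of these. The interval of the other 31 reached beyond 1, so a change of that size was not excluded at this depth. LINC00665, for example, averaged 2.36 CPM in DMSO and 3.796 CPM in FT671 (log2 fold change 0.74 ± 0.30 SE, adjusted p = 0.0560 in edgeR), and its groups overlapped. This gene is named as one just past the threshold, chosen after its values were seen.

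Whether LINC genes were gained or lost was asked with a fixed count. A gene was called gained if it had at most 3 counts in every DMSO library, more than 3 in every FT671 library and passed the 0.05 threshold, and lost in the reverse case. By this definition 0 of the 141 genes were gained and 0 were lost. No LINC gene of the 141 was at 0 in any library, and 13 had a library at 3 counts or fewer. The gene nearest to a loss was LINC00896, with 21, 19 and 9 counts in DMSO and 2, 3 and 7 in FT671. Nearest to a gain was LINC02235, with 10, 8 and 2 counts in DMSO and 11, 12 and 25 in FT671, where the last of the DMSO libraries is among the shallow ones.

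Because DMSO held more of the counts, the minimum favored genes higher in DMSO. In the DMSO libraries alone 107 of the 141 genes reached 60 counts, and in the FT671 libraries alone 90 did. Of these, 89 reached it in both groups, 18 in DMSO only and 1 in FT671 only, and 33 in neither group alone. Just inside the minimum were LINC01885, LINC02241 and LINC00896 with 61 counts each. Just outside were LINC02964 with 58 counts and LINC00239 and LINC01801 with 57 each.

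The largest fall was that of LINC01300 (ENSG00000253595.6), which lies at chr8:141340505-141344621 on the plus strand in hg38 with no annotated protein-coding gene overlapping it. Its levels were 8.86, 13.7 and 12.6 CPM in DMSO and 1.33, 2.89 and 1.88 CPM in FT671. Every FT671 library was far below every DMSO library. The fitted level was 5.64-fold lower (log2 fold change -2.50 ± 0.27 SE, edgeR adjusted p = 4.92e-06). The nearest protein-coding start, that of the receptor gene GPR20 at 26781 bp, belonged to a gene with too few counts to be tested.

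Some of the falls lay beside protein-coding genes that fell as well, as did 29.2% of all protein-coding genes tested. LINC00205 (ENSG00000223768.2, chr21:45288035-45297806) starts 137 bp from POFUT2 and runs away from it, as its promoter sequence shows, and POFUT2 encodes an O-fucosyltransferase of the endoplasmic reticulum. LINC00205 was at 14.3, 12.7 and 10.7 CPM in DMSO and at 5.11, 4.15 and 4.20 CPM in FT671. The fall was 2.91-fold (log2 fold change -1.54 ± 0.18 SE, edgeR adjusted p = 1.08e-05), and the groups did not overlap. POFUT2 itself was at 74.3, 76.4 and 68.4 CPM in DMSO and 38.9, 33.2 and 35.6 CPM in FT671, a log2 fold change of -1.03 ± 0.10 SE (adjusted p = 1.34e-06 in the same test).

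The other end of POFUT2 is shared with another LINC gene. LINC00334 (ENSG00000182586.9, chr21:45234308-45264548, plus strand) ends 23487 bp before LINC00205 begins, and its last part overlaps exons of POFUT2 on the opposite strand. Its levels were 9.49, 9.80 and 11.8 CPM in DMSO and 4.44, 3.43 and 5.005 CPM in FT671, with no overlap of the groups (log2 fold change -1.20 ± 0.19 SE, edgeR adjusted p = 1.52e-04). Since POFUT2 had more counts than LINC00334 and the strand is not known, reads of POFUT2 counted on LINC00334 cannot be told apart from its own.

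LINC00938 (ENSG00000273015.2, chr12:45718046-45727860, minus strand) starts 1846 bp from ARID2 and is also transcribed away from it. ARID2 encodes a subunit of the PBAF chromatin remodeling complex. The LINC00938 levels of 8.03, 8.06 and 9.98 CPM in DMSO stood against 3.11, 3.97 and 1.79 CPM in FT671. This was a 3.13-fold fall without overlap of the groups (log2 fold change -1.65 ± 0.26 SE, edgeR adjusted p = 1.22e-04). ARID2 fell from 55.0, 53.2 and 69.3 CPM to 20.9, 19.8 and 25.3 CPM, a log2 fold change of -1.39 ± 0.13 SE. LINC00938 has no annotated overlap with another gene.

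LINC00294 (ENSG00000280798.1, chr11:33076149-33079454, plus strand) lies within the span of TCP11L1 on the same strand, and its exons overlap CSTF3, a subunit of the mRNA cleavage stimulation factor, and PIGCP1 on the other strand. It was at 9.49, 9.16 and 11.8 CPM in DMSO and at 4.66, 3.61 and 6.08 CPM in FT671 (log2 fold change -0.98 ± 0.20 SE, edgeR adjusted p = 0.00116). All 3 overlapping genes fell too, TCP11L1 by 0.56, CSTF3 by 0.45 and PIGCP1 by 0.56 on the log2 scale.

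The remaining large falls overlapped no gene with 60 or more counts. LINC02693 on chromosome 17 was at 15.9, 15.8 and 14.97 CPM in DMSO and 8.66, 7.76 and 7.51 CPM in FT671 (log2 fold change -0.99 ± 0.14 SE). LINC00467, described as the source of a small mitochondrial peptide, fell from 9.90, 12.5 and 10.5 CPM to 5.55, 5.59 and 5.99 CPM (log2 fold change -0.93 ± 0.17 SE). LINC02977 on chromosome 9 had the highest CPM of the 10, not scaled by length, with 34.8, 31.5 and 44.7 CPM in DMSO and 18.7, 22.9 and 21.6 CPM in FT671 (log2 fold change -0.78 ± 0.14 SE). These genes had edgeR adjusted p-values of 5.81e-05, 4.62e-04 and 3.53e-04, and in none of them did the groups overlap.

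Low counts limited the last pair. LINC00896 on chromosome 22 was at 1.45, 1.74 and 1.66 CPM in DMSO and 0.444, 0.541 and 0.626 CPM in FT671, with FT671 replicates 1 and 2 at or under the floor of 3 counts (log2 fold change -1.48 ± 0.38 SE, edgeR adjusted p = 0.00544). Without DMSO replicate 1, DMSO replicate 2 or FT671 replicate 3 it did not pass the filter on low counts and was not tested. LINC02993 starts 3594 bp from ZEB2, a zinc-finger repressor that fell by 0.39 on the log2 scale. Its levels were 2.28, 2.38 and 1.85 CPM in DMSO and 1.33, 0.902 and 1.25 CPM in FT671 (log2 fold change -0.92 ± 0.31 SE, adjusted p = 0.0247). Its adjusted p rose to 0.0815, 0.0795, 0.0948 and 0.0714 without DMSO replicates 1 and 2 and FT671 replicates 2 and 3 respectively.

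The other 6 genes that fell did so by less. LINC00534, LINC01088 and LINC02840 had log2 fold changes of -0.71, -0.69 and -0.57, and LINC00963, LINC03021 and LINC01610 had -0.50, -0.50 and -0.44. LINC01088 (18.4, 17.2 and 22.7 CPM in DMSO, 10.4, 13.4 and 11.6 CPM in FT671) starts 47 bp from PAQR3, a gene for a Golgi membrane protein, and PAQR3 fell by 0.71 on the log2 scale. NAA11, a gene for a catalytic subunit of an N-terminal acetyltransferase that overlaps LINC01088 on the other strand, rose by a log2 fold change of 0.62.

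**Figure D3:**
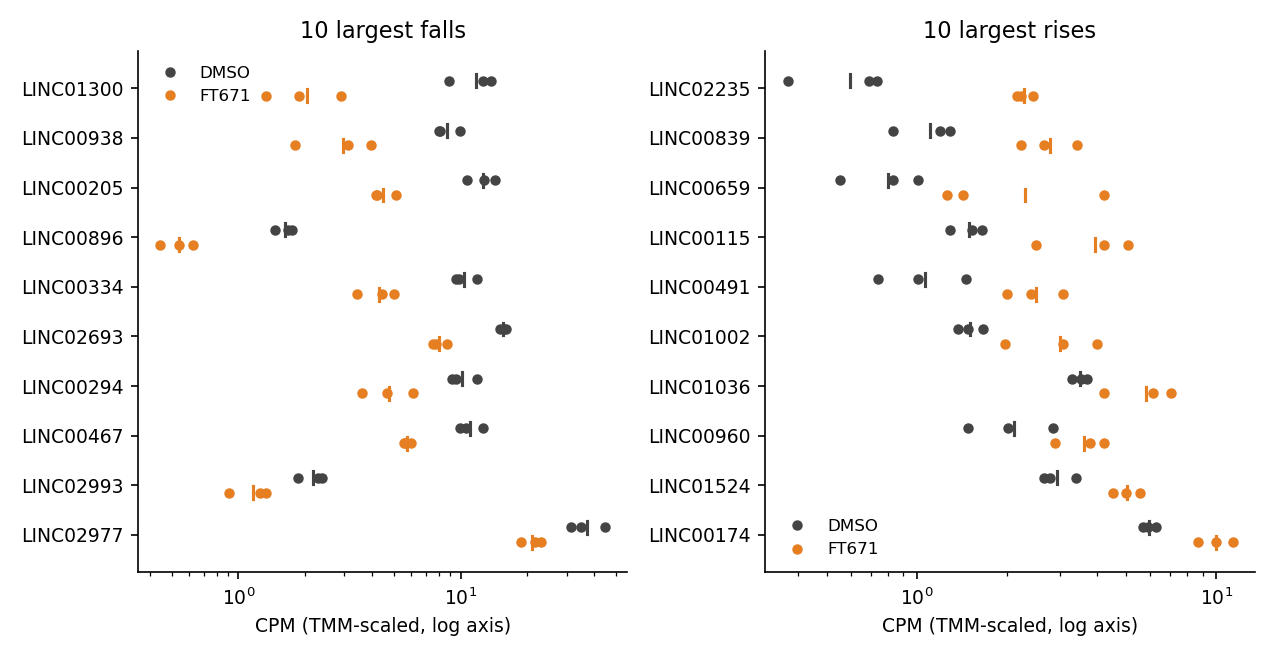
CPM (TMM-scaled, log axis) in each library for the 10 LINC genes with the largest falls (left) and the 10 with the largest rises (right), with DMSO in dark grey, FT671 in orange and a bar at each group's mean. Genes were named only where the groups do not overlap. The rises have DMSO means from 0.598 CPM in LINC02235 to 5.97 CPM in LINC00174.

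The largest rise was that of LINC02235 (ENSG00000254689.3, chr8:81841952-81924348, plus strand). It was at 0.692, 0.733 and 0.370 CPM in DMSO and at 2.44, 2.17 and 2.23 CPM in FT671, a 3.45-fold rise without overlap of the groups (log2 fold change 1.79 ± 0.34 SE, edgeR adjusted p = 6.84e-04). Its start lies 914 bp inside SNX16, a gene for an endosomal sorting nexin on the other strand, and exons of both overlap. SNX16 rose from 4.15, 4.76 and 5.55 CPM to 9.11, 9.20 and 9.38 CPM (log2 fold change 0.98 ± 0.18 SE). Without knowledge of strand the counts of these genes cannot be told apart.

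LINC00839 and LINC00491 rose and overlap no gene with 60 or more counts. LINC00839 (ENSG00000185904.12, chr10:42475480-42495337) was at 0.831, 1.19 and 1.29 CPM in DMSO and 2.67, 3.43 and 2.23 CPM in FT671, a 2.53-fold rise (log2 fold change 1.34 ± 0.32 SE, edgeR adjusted p = 0.00350). The nearest protein-coding start, that of ZNF33B at 163090 bp, had a log2 fold change of 0.00. LINC00491 on chromosome 5 was at 1.45, 1.01 and 0.739 CPM in DMSO and 1.999, 3.07 and 2.41 CPM in FT671 (log2 fold change 1.10 ± 0.33 SE, adjusted p = 0.0116). Its adjusted p was 0.0550 without FT671 replicate 2.

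LINC00659 on chromosome 20 rested on 1 library. Its levels were 0.831, 1.01 and 0.555 CPM in DMSO and 4.22, 1.26 and 1.43 CPM in FT671, so that replicate 1 stood apart from the other FT671 libraries. With that library the log2 fold change was 1.26 ± 0.47 SE (edgeR adjusted p = 0.0363), and without it 0.70 (adjusted p = 0.192). Without DMSO replicate 1, DMSO replicate 2 or FT671 replicate 3 the gene had too few counts to be tested.

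LINC00115 (ENSG00000225880.5, chr1:824228-827539, minus strand) was at 1.52, 1.65 and 1.29 CPM in DMSO and 4.22, 5.05 and 2.50 CPM in FT671 (log2 fold change 1.26 ± 0.32 SE, edgeR adjusted p = 0.00452). Its exons overlap those of LINC01128, itself one of the 141 genes, which is transcribed in the other direction and had a log2 fold change of 0.21 (adjusted p = 0.333). An unnamed pseudogene within the span of LINC00115 had one of -0.21 (adjusted p = 0.699). LINC00174 on chromosome 7 rose from 6.30, 5.68 and 5.92 CPM to 11.3, 8.66 and 10.0 CPM (log2 fold change 0.73 ± 0.17 SE, adjusted p = 0.00241). It starts 41 bp from LINC03011, on the opposite strand, which had a log2 fold change of 0.34 and did not pass.

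LINC01524 (chr20:52192159-52670578) overlaps ZFP64, a zinc-finger transcription factor gene on the other strand, and the directions differed. LINC01524 rose from 3.39, 2.66 and 2.77 CPM to 5.55, 4.51 and 5.005 CPM (log2 fold change 0.73 ± 0.22 SE), whereas ZFP64 fell by 0.68 on the log2 scale. The edgeR adjusted p of LINC01524 was 0.0127, and 0.0545 without DMSO replicate 2.

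LINC01002, LINC01036 and LINC00960 also lost the call when some libraries were left out. LINC01002 on chromosome 19 was at 1.66, 1.37 and 1.48 CPM in DMSO and 3.998, 3.07 and 1.97 CPM in FT671 (log2 fold change 0.86 ± 0.32 SE, edgeR adjusted p = 0.0385). Leaving out DMSO replicates 1 or 2 or FT671 replicates 1 or 2 gave adjusted p-values of 0.0689, 0.104, 0.146 and 0.107. The nearest protein-coding start belonged to PLPP2, a lipid phosphatase gene 44859 bp away that rose by a log2 fold change of 2.63.

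LINC01036 on chromosome 1 was at 3.53, 3.30 and 3.70 CPM in DMSO and 4.22, 7.04 and 6.17 CPM in FT671 (log2 fold change 0.76 ± 0.22 SE, edgeR adjusted p = 0.0105). Without FT671 replicates 2 or 3 its adjusted p was 0.0536 or 0.0564. LINC00960 on chromosome 3, the only one of the 141 genes with an annotated microRNA gene (MIR4273) inside its span on the same strand, was at 2.01, 2.84 and 1.48 CPM in DMSO and 3.78, 2.89 and 4.20 CPM in FT671. Its log2 fold change was 0.75 ± 0.28 SE (adjusted p = 0.0364), and without DMSO replicates 1 or 3 or FT671 replicates 1 or 3 the adjusted p was 0.131, 0.0597, 0.0712 or 0.206. Exons of LINC00960 also overlap the zinc-finger gene ZNF717, which had a log2 fold change of 0.20 (adjusted p = 0.414).

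The other 11 genes that rose had log2 fold changes between 0.24 (LINC01029) and 0.70 (LINC01018). LINC01018 overlaps NSUN2, an RNA cytosine methyltransferase gene, on the other strand, and NSUN2 rose by a log2 fold change of 0.69. Better counted were LINC00221, which rose from 24.3, 20.7 and 32.3 CPM to 40.2, 37.9 and 38.6 CPM (log2 fold change 0.63 ± 0.14 SE), and LINC01278, which rose from 31.7, 33.5 and 38.1 CPM to 43.8, 48.5 and 55.2 CPM (log2 fold change 0.54 ± 0.11 SE). In both genes the FT671 libraries were all above the DMSO libraries. Exons of LINC00221 overlap IGHVII-44-2, an immunoglobulin pseudogene on the other strand that rose by 0.76 on the log2 scale. LINC01278 overlaps SPIN4, a protein-coding gene on the same strand that rose by 0.40. How far reads of these overlapping genes enter the counts was not tested. LINC01023, LINC00630, LINC00470 and LINC00923 had log2 fold changes of 0.62, 0.57, 0.54 and 0.47. LINC01694, LINC02506 and LINC00847 had 0.37, 0.34 and 0.33. Exons of LINC00847 overlap HEIH, an lncRNA gene on the other strand that rose by 0.58 on the log2 scale. They also overlap an unnamed lncRNA gene that did not pass (log2 fold change -0.14).

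Some of the calls named above did not pass in DESeq2's Wald test. Among the 10 largest falls these were LINC00896 (adjusted p = 0.0762) and LINC02993 (0.197). Among the 10 largest rises they were LINC00659 (0.0610), LINC00491 (0.0746), LINC01002 (0.115), LINC01036 (0.0625), LINC00960 (0.158) and LINC01524 (0.0802). Of all the LINC genes called by edgeR, 9 rises and 12 falls also passed in DESeq2's Wald test. Some of the smaller rises and falls therefore lost the call as well, and apart from LINC01029 below they are not listed here. With no filter on low counts edgeR's adjusted p was 0.0562 for LINC02993, 0.0668 for LINC01002 and 0.0610 for LINC00960.

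Levels were compared between genes per kb of exon. They ranged from 0.102 to 43.5 CPM per kb with a median of 0.9996, and 71 of the 141 genes were under 1 and 9 over 10. The 6 genes with the most counts held 33.7% of the counts of all 141. Together the 141 genes took between 0.147% and 0.156% of the counts of a library, or 1483 to 1536 CPM summed, and these ranges overlapped between DMSO (1483, 1489 and 1536) and FT671 (1485, 1522 and 1535).

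The most abundant LINC RNA per kb was LINC01610 on chromosome 6, at 43.5 CPM per kb. It was at 62.7, 59.4 and 49.7 CPM in DMSO and 48.9, 41.3 and 38.6 CPM in FT671, a fall of 0.44 on the log2 scale (edgeR adjusted p = 0.00534), and the lowest DMSO library was just above the highest FT671 library. LINC01169 at 35.5 CPM per kb followed, with 27.8, 29.0 and 23.3 CPM in DMSO and 32.9, 29.4 and 34.9 CPM in FT671. Its log2 fold change of 0.27 ± 0.12 SE did not pass (adjusted p = 0.0668), although its groups did not overlap. With a correction for GC content its edgeR adjusted p was 0.0123, and with one for exon length 0.235.

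LINC00958, an RNA studied in several carcinomas, came next at 28.3 CPM per kb with 145 to 165 CPM in DMSO and 163 to 176 CPM in FT671. Its log2 fold change was 0.14 (95% interval -0.02 to 0.30, edgeR adjusted p = 0.143), and 0.17 (adjusted p = 0.0244) without DMSO replicate 3. With a correction for GC content its edgeR adjusted p was 0.0323, and with one for exon length 0.0139. LINC02252 at 22.2 CPM per kb had a log2 fold change of -0.11 (interval -0.37 to 0.14). LINC01287 at 13.1 CPM per kb had one of 0.11 (interval -0.04 to 0.26). The edgeR adjusted p of LINC01287 was 0.0114 with a correction for exon length and 0.0703 with one for GC content. LINC02252 overlaps an unnamed gene with 60 or more counts. For these 3 genes the intervals exclude a change of 0.5 on the log2 scale in either direction.

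LINC01029 on chromosome 18, at 16.9 CPM per kb, was at 66.8, 70.2 and 71.5 CPM in DMSO and at 71.1, 81.5 and 91.0 CPM in FT671. This is the gene among the rises whose groups overlapped, at a log2 fold change of 0.24 ± 0.10 SE (edgeR adjusted p = 0.0484). It also overlaps an unnamed gene with 60 or more counts. Its adjusted p was 0.164, 0.0795, 0.120 and 0.293 without DMSO replicates 1 and 2 and FT671 replicates 2 and 3 respectively, 0.0840 with library totals alone, 0.158 with no filter and 0.0840 in DESeq2's Wald test.

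**Figure D4:**
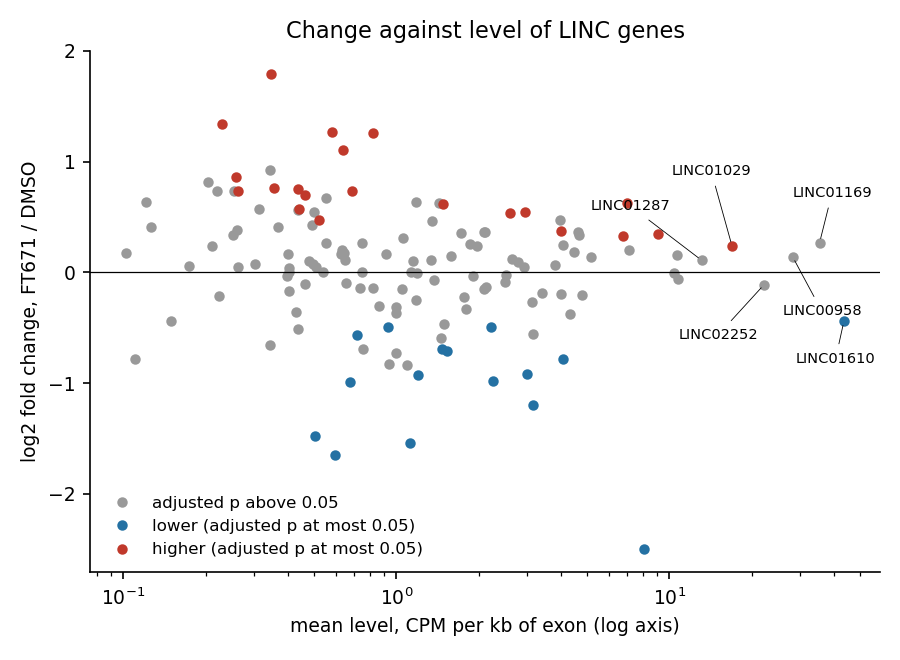
Log2 fold change of FT671 over DMSO against mean level over the 6 libraries (CPM per kb of exon, log axis) for the 140 LINC genes tested, with genes that rose in red, those that fell in blue and the others in grey. The 6 most abundant genes are named, and all 6 lie between -0.44 and 0.27.

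By position in the annotation, 111 of the 141 genes were intergenic, 21 overlapped a protein-coding gene on the opposite strand, 6 overlapped one on the same strand and 3 were divergent, that is, started within 2 kb of a protein-coding start on the opposite strand without overlap. Of the 110 intergenic genes tested 15 rose (13.6%) and 9 fell (8.18%), beside 23.6% and 26.5% of all genes tested. Of the 21 with an opposite-strand overlap 5 rose and 4 fell, of the 6 on the same strand 1 rose and 1 fell, and of the 3 divergent genes 2 fell. Both of these, LINC00205 and LINC00938, are described above.

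Counting those that overlap as well, 11 LINC genes started within 2 kb of a protein-coding start. In 4 of them (36.4%) the LINC gene changed, beside 50.1% of all genes tested. Of all protein-coding genes tested 24.7% rose and 29.2% fell. LINC00938, LINC00205 and LINC01088 fell and LINC02235 rose, each together with the protein-coding gene and in its direction. In 3 others only the protein-coding gene passed. LINC01089 starts 103 bp from SETD1B, a histone H3K4 methyltransferase gene that fell from 109, 107 and 105 CPM to 52.9, 51.1 and 50.5 CPM (log2 fold change -1.06 ± 0.08 SE, edgeR adjusted p = 1.69e-07), while LINC01089 had a log2 fold change of -0.25 (adjusted p = 0.357). LINC01547 had -0.17 (adjusted p = 0.666) beside a rise of 0.71 in SLX9, and LINC00649 had 0.26 (adjusted p = 0.187) beside a rise of 0.63 in ATP5PO, which encodes a subunit of ATP synthase. In the other 4, LINC02245, LINC01011, LINC00571 and LINC00867, neither gene of the pair that starts nearest passed.

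Over all 97 LINC genes whose nearest protein-coding gene was tested, the log2 fold changes of the members of a pair had Pearson's r = 0.36 and Spearman's rho = 0.30 and the same sign in 58. Among the 71 intergenic genes Pearson's r was 0.26, with the same sign in 40. Among the 19 with an opposite-strand overlap it was 0.38, with the same sign in 12. The sign was the same in 4 of the 4 same-strand overlaps and in 2 of the 3 divergent pairs. These are descriptions across genes, which share libraries and in part reads, and the 97 genes have 93 distinct neighbours. Of the 16 LINC genes that fell, 12 had a tested neighbour, of which 8 fell and 2 rose. Of the 21 that rose, 15 had one, of which 7 rose and 4 fell. Among the 10 largest rises, the neighbours SAMD11 of LINC00115 (log2 fold change 0.62), PAM of LINC00491 (0.81) and PLA2G4A of LINC01036 (0.67) rose, KCTD7 of LINC00174 fell by 0.34 and MRGBP of LINC00659 did not pass (0.13). Among the 10 largest falls, SUSD1 beside LINC02977 fell by 0.20 and TRAF5 beside LINC00467 did not pass (log2 fold change 0.09). Among the 70 genes that did not pass and had a tested neighbour, 17 neighbours rose and 23 fell.

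**Figure D5:**
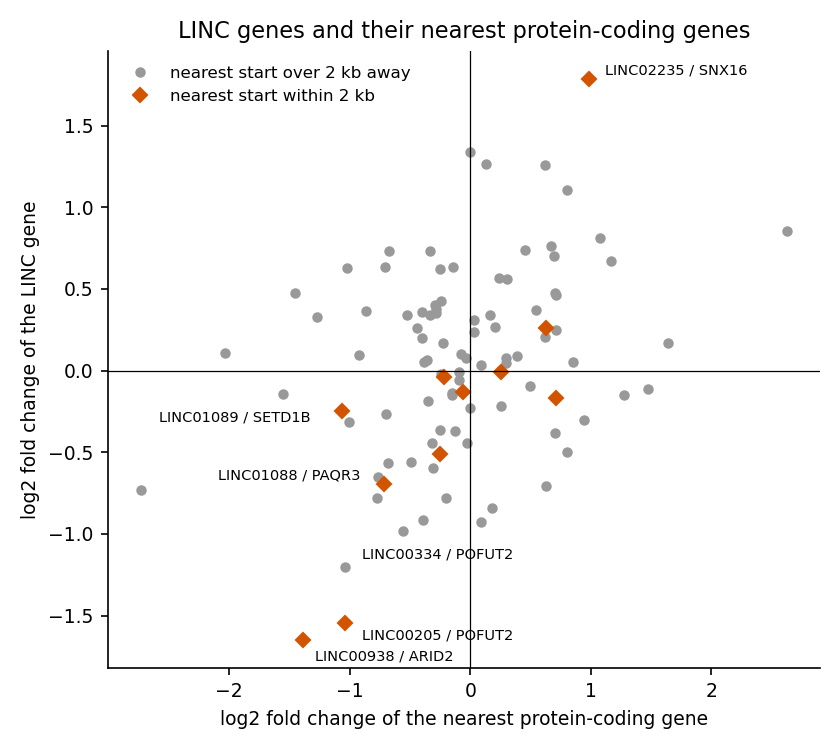
Log2 fold change of 97 LINC genes against that of the protein-coding gene with the nearest start, with orange diamonds for pairs whose starts lie within 2 kb and grey points for the others. LINC00938 with ARID2, LINC00205 with POFUT2 and LINC01088 with PAQR3 lie at the lower left and LINC02235 with SNX16 at the upper right, while LINC01089 with SETD1B lies near 0 on the LINC axis.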

How the data were processed

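RNA-seq counts of K562 cells treated with DMSO or FT671 (3 libraries each) were used. According to the study's methods and the labels, ribosomal RNA was depleted (KAPA RNA HyperPrep with RiboErase), and the authors ran STAR (two-pass) against hg38 on the paired-end reads and deposited its raw counts per gene. The STAR version, annotation release and strand setting are not given in the sources used here. Identifiers without their version matched GENCODE release 44 for 60295 of 60609 genes, and the 314 others held 0.0609% of the counts.

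All genes were fitted together with edgeR 4.0.16 (filterByExpr, TMM, quasi-likelihood test, no covariates, Benjamini-Hochberg adjustment over 13895 genes), in R 4.3.3 and Python 3.11.15, and the LINC genes' results were read out. DESeq2 1.42.0 was an alternative, and loess corrections for exon length and GC content used a span of 0.3. CPM were TMM-scaled, and levels per kb used the union of exons. Genes were named as the 10 largest rises and 10 largest falls past 0.05 without overlap of the groups, the 6 highest CPM per kb, microRNA hosts, genes at the edge of the count minimum, and overlapping or nearest genes. Other genes that passed are given by their log2 fold change. 1 marker gene is not reported here. The genes and lists were chosen with earlier results of these data known.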

Additional observations from a re-analysis of the deposited data

How the results depend on the processing

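The 21 rises at 0.05 became 9 with DESeq2's Wald test and 12 with no filter on low counts. They became 4 in LINC genes without an overlap on the same strand or with an exon on the other. An overlap of spans alone with a gene on the other strand, as of LINC01088 with NAA11, was not counted. The rises numbered 11 in LINC genes without such an overlapping gene of 60 or more counts (added after the data were seen). When each library was left out in turn, 11 to 27 rose. The 16 falls became 9 in LINC genes without the overlaps counted here. In the other alternatives they were within 1.5 times of 16, with 14 to 20 when each library was left out. The 0 rises at 1e-05 became 0 to 2 with each library left out. The 1 fall at 1e-05 became 2 with DESeq2's Wald test, 5 with a GC correction, 0 with at least 10 counts in every library (which removed LINC01300), 9 with no filter, 2 with an exon length correction and replicate block, 2 with the replicate block alone and 0 to 4 with each library left out. The median log2 fold change of 0.09 became 0.111 with DESeq2's size factors, 0.0766 with a GC correction and 0.0606 with library totals. It became 0.0529 with no filter, 0.0771 with a minimum of 120 counts and 0.0634 without the overlaps counted here. With each library left out it was 0.0676 to 0.122. The cause of these shifts was not tested, apart from the removal of genes that the alternative itself makes.

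Rises were 56.8% of the LINC calls, and 42.9% with DESeq2's Wald test, 41.4% with no filter, 46.4% without DMSO replicate 2 and 44% without FT671 replicate 3. For the 26 named LINC genes, 352 of 400 alternative values kept their direction and side of the threshold, 39 lost the call, 9 gained it and 0 changed direction. LINC00960 and LINC02993 each lost the call in 8 alternatives. Both groups carry replicate numbers in the labels. The deviations of same-numbered libraries correlated at 0.115, -0.0605 and 0.140, and 3 of 6 libraries correlated best with their own number. With 3 libraries per group these values cannot decide whether same-numbered libraries came from the same experiment. The main fit used no block. With the replicate block 22 LINC genes rose and 17 fell, 20 and 15 of them shared with the fit without it, and LINC00960 (adjusted p = 0.0584) and LINC02993 (0.0570) were not called. The shallowest library limits calls of genes near 60 counts.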

Other observations

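Below the minimum of 60 counts, 5 further LINC genes were kept by edgeR's filterByExpr, and 3 of them rose at an adjusted p of 0.05 in edgeR. LINC01971 had 5, 1 and 2 counts in DMSO and 8, 10 and 19 in FT671, with a log2 fold change of 2.68 ± 0.46 SE (adjusted p = 2.86e-04), which is above that of any of the 140 tested LINC genes with 60 or more counts, but DMSO replicates 2 and 3 were under the floor of 3 counts. LINC02749 had a log2 fold change of 1.72 (adjusted p = 0.00379) and LINC01623 one of 1.45 (adjusted p = 0.00668). LINC00239 and LINC02154 did not pass.

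A count pattern of loss, with more than 3 counts in every DMSO library and at most 3 in every FT671 library, was found in 5 LINC genes with fewer than 60 counts, and none of them could be tested after the filter. They were LINC02156 (17, 8 and 7 counts in DMSO and 1, 0 and 2 in FT671), LINC03015 (10, 13 and 7 against 1, 2 and 3), LINC03069 (14, 8 and 6 against 2, 1 and 3), LINC02772 (9, 8 and 8 against 0, 0 and 1) and LINC02422 (6, 6 and 4 against 0, 1 and 1). The reverse pattern was found in 0. FT671 libraries 1 and 2 and DMSO library 3 have the smallest totals, so 3 counts mean a different level in each library. DMSO provided 58.6% of the counts, so a fixed count favors a pattern of loss over the reverse. How often other genes show either pattern was not counted, so these 5 are no result about LINC genes.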
